A study of Mus musculus with 27 samples.

Results

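The 50 keratin genes (Krt genes named by number, with or without a letter) among the 20156 genes of the mouse expression tables were followed through reprogramming of fibroblasts to pluripotent cells. They were chosen by symbol. Keratins are the intermediate filament proteins of epithelial cells, and each filament is built from pairs of an acidic type I keratin and a basic type II keratin. The genes lie in a type I and a type II cluster, and which pair a cell makes marks its epithelium: Krt8 with Krt18 in simple epithelia and the early embryo, Krt5 with Krt14 in the basal layer of stratified epithelia, Krt6 with Krt16 and Krt17 in wounds and hair follicles. Fibroblasts rely on the related protein vimentin in place of keratins.

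3 cell types were compared: mouse embryonic fibroblasts (MEFs), partially reprogrammed cells (pre-iPSCs) and induced pluripotent stem cells (iPSCs). All derived from E13.5 embryos carrying 1 copy each of an Oct4-GFP and a Rosa26 allele. The labels give the background as CBA/CaJ and C57BL/6J, and the study's methods add that males of this cross were mated to 129Sv/Jae females. Pre-iPSCs and iPSCs had received the 4 Yamanaka factors by retrovirus and grew for several passages on mitomycin-treated MEF feeders, whereas MEFs were harvested at an early passage. By the study's methods there were 2 stable pre-iPSC clones, each with iPSCs that correspond to it. The library titles name no clone, so this matching could not be used. Each cell type had 2 RNA-seq libraries and 2 libraries each of MNase ChIP-seq for histone H3, H3K4me3 and H3K27me3, and 1 library for H3K9me3, 27 in all. H3K4me3 marks active promoters, and H3K27me3 and H3K9me3 are marks of repressed chromatin. Libraries titled as repeats are called replicate 2. MEF chromatin was digested with another amount and time of MNase than that of the other cells, so digestion and cell type cannot be told apart in any ChIP comparison with MEFs.

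The labelled cell types were checked against their markers. The summed level of 8 fibroblast genes was 4418 and 4230 FPKM (fragments per kilobase of transcript scaled to sequencing depth, a level per transcript length) in MEFs, 298.7 and 96.0 FPKM in pre-iPSCs and 205 and 240 FPKM in iPSCs, and that of 8 pluripotency genes was 0.147 and 1.03, 881 and 3693, and 1803 and 2075 FPKM in the same order. In pre-iPSCs most of the latter sum came from Pou5f1, Sox2 and Tdgf1, whereas Nanog, Esrrb, Zfp42 and Dppa3 stayed at or under 0.519 FPKM there, and these 4 and Dppa5a were higher in iPSCs. The 4 entered the test described below only through their iPSC values and so had to differ. How far feeder cells and transgene reads add to these sums was not tested. The unique reads that the study lists came to between 14757607 and 18871831 in the H3K4me3, H3K27me3 and H3K9me3 libraries and between 89510637 and 129862735 in the H3 libraries. The FPKM tables carry no counts, so the depth behind an mRNA level is unknown.

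27 of the genes lie on chromosome 11 (chr11:99094412-100131185, mm9) and 23 on chromosome 15 (chr15:101180002-101862457), the latter including the type I gene Krt18, whose start lies 23874 bp from that of its partner Krt8. Their starts differed from most mouse promoters in base composition. The median ratio of observed to expected CpG within 500 bp of the start was 0.317 for keratin genes and 0.601 over all genes, at a similar GC content of 54.2% and 56.0%. In the 300 bases from 250 before to 50 after the start, the letters TATAAA stood on the gene's strand in 23 of 50 keratin genes (46%) and in 8.67% of all genes. Between 50 and 20 bases before the start, they stood in 16 keratin genes (32%) and 2.98% of all genes. The GC box letters GGGCGG were found on either strand in 8 keratin genes (16%) and in 49.1% of all genes. The letters TGANTCA, the AP-1 motif, were present on either strand in 6% of keratin genes and 6.80% of all genes, and GCCNNNGGC, the AP-2 motif, in 20% and 20.8%. Motif matches are descriptions of the letters and show no binding.

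The 200 bases before the start of the 7 keratin genes whose mRNA or promoter marks carry the results below are printed here from mm9, 5' to 3' in the direction of the gene, ending just before the outermost start given by the tables or by a coding GENCODE transcript. Capitals mark TATAAA on the gene's strand, the letters GGGCGG on either strand, and a run shared by Krt17 and Krt14. The wound and follicle keratin Krt17 and the basal keratin Krt14 are shown for that run, GTGATGAAAGCCNAGGGGAATGGAA, in which N is the 1 base where they differ. It was noticed by looking at these sequences and is their longest common stretch with at most 1 difference, and on either strand only these 2 of the 20156 promoters hold it. Krt16, the wound keratin next to Krt17, holds TATAAA at the same distance as Krt17, and Krt13 of mucosa, Krt19, Krt8 and Krt18 of simple epithelia are shown because their mRNA changed between the cell types.
Krt17, chr11:100122344-100122543, minus strand: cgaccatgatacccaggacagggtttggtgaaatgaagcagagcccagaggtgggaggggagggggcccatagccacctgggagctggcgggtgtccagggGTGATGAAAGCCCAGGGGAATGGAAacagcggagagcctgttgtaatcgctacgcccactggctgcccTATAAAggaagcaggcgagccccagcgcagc
Krt14, chr11:100068863-100069062, minus strand: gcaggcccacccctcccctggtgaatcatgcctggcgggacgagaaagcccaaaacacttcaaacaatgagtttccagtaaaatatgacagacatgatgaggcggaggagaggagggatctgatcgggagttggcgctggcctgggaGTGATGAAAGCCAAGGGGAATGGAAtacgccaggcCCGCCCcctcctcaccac
Krt16, chr11:100110277-100110476, minus strand: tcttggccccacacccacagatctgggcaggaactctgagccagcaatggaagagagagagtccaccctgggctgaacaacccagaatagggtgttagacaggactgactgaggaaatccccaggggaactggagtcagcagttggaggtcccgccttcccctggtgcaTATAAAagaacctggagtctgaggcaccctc
Krt13, chr11:99982881-99983080, minus strand: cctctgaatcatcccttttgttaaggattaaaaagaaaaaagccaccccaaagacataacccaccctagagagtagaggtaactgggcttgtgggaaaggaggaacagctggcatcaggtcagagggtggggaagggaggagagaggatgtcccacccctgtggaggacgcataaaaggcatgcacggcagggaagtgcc
Krt19, chr11:100007435-100007634, minus strand: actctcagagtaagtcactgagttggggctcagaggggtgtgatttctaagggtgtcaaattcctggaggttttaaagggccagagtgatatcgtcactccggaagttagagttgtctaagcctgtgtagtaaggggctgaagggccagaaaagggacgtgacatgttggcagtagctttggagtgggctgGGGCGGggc
Krt8, chr15:101834774-101834973, minus strand: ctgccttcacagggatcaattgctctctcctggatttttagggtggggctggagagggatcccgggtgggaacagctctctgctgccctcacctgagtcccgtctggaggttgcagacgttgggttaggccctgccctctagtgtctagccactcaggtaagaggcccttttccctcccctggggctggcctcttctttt
Krt18, chr15:101858447-101858646, plus strand: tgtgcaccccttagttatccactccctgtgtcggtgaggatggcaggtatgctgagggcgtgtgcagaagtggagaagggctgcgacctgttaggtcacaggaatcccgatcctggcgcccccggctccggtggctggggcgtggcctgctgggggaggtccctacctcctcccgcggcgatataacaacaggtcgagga
TATAAA began 31 bases before the printed start in both Krt17 and Krt16. Krt14 also holds TATAAA between 50 and 20 bases before its start in the tables, but outside the printed stretch, which ends 38 bp upstream of that start. The shared run began 99 bases before it in Krt17 and 53 bases before it in Krt14. GGGCGG began 18 bases before the start in Krt14, on the reverse strand, and 9 bases before it in Krt19. The coding GENCODE start lay 201 bp upstream of the start in the tables for Krt19 and 1300 bp upstream for Krt7, so that the promoter windows of these genes depend on the annotation.

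14 of the 50 keratin genes reached 1 FPKM in at least 1 library, 8 of them on chromosome 11 and 6 on chromosome 15. The other 36 stayed at or under 0.888 FPKM, and 17 of these were listed at 0 in all 6 libraries. By role, 5 of 6 simple-epithelium keratins reached 1 FPKM, 2 of 3 basal keratins, 2 of 7 suprabasal keratins, 1 of 4 keratins of mucosa and cornea, 3 of 6 wound and appendage keratins and 1 of 3 others. None of the 6 inner root sheath keratins and none of the 15 hair shaft keratins did. The 15 hair shaft keratins summed to between 0 and 0.102 FPKM in a library.

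Summed over the 50 genes, keratin mRNA was 34.4 and 33.9 FPKM in MEFs, 275 and 322 FPKM in pre-iPSCs and 16.3 and 26.5 FPKM in iPSCs. Both pre-iPSC libraries lay above all the others. Over all genes, FPKM summed to 818207 in MEF replicate 2 and to between 392424 and 527799 in the other libraries. The levels printed here are not rescaled for this. The leading keratin was Krt19 in both MEF libraries, with 54.17% and 45.02% of the sum. In pre-iPSCs it was Krt17 in replicate 1, with 35.3%, and Krt19 in replicate 2, with 71.9%. Krt18 led in both iPSC libraries, with 32.6% and 36.4%. In bulk samples, fewer expressing cells and less RNA per cell cannot be told apart.

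**Figure D1:**
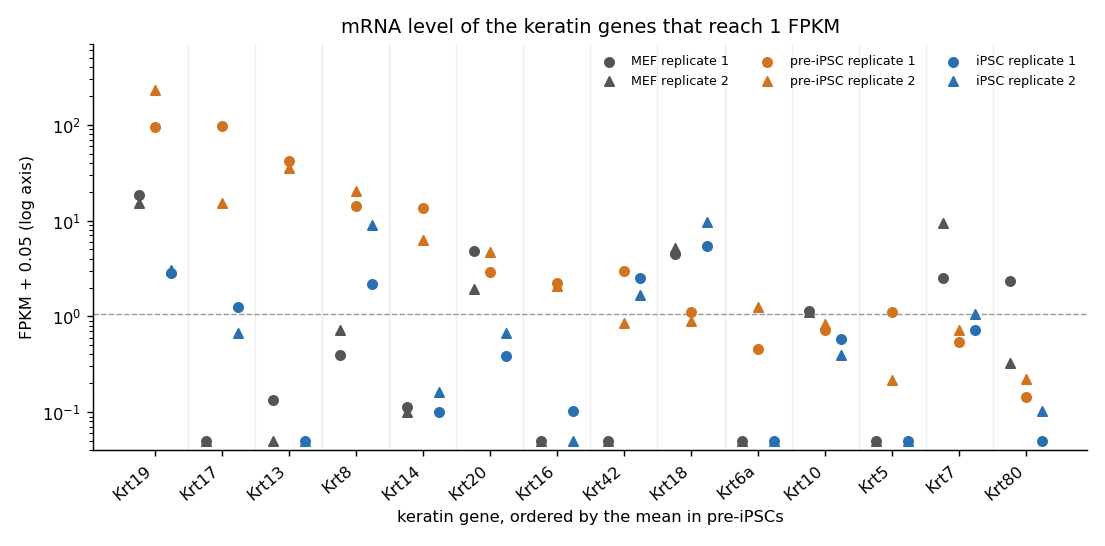
FPKM plus 0.05 on a log axis for each of the 14 keratin genes that reached 1 FPKM, with 1 point per library (circles, replicate 1; triangles, replicate 2; grey, MEF; orange, pre-iPSC; blue, iPSC); the dashed line is 1 FPKM and points at the bottom are listed at 0. Krt19, Krt17, Krt13, Krt8, Krt14 and Krt16 were above every MEF and iPSC library in both pre-iPSC libraries, whereas Krt18 and Krt7 were below every MEF library.

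Differences in mRNA were tested with limma on log2(FPKM + 1) across the 12401 genes whose mean reached 0.5 FPKM, of which 11 were keratin genes, and log2 changes below are on that scale. The largest mean that missed this limit was 0.483 FPKM (Krt80) and the smallest that passed was 0.711 FPKM (Krt16). Krt17, Krt16, Krt13 and Krt14 passed only through their pre-iPSC values and so had to differ, and the counts that follow describe the tested genes and do not stand for all keratins. Between pre-iPSCs and MEFs, 7 keratin genes were higher (Krt17, Krt13, Krt8, Krt14, Krt19, Krt16 and Krt42), where 7.39% of all tested genes were, and 2 were lower (Krt7 and Krt18), where 9% were. Between iPSCs and pre-iPSCs, 5 were lower (Krt13, Krt19, Krt17, Krt14 and Krt16) against 4.71% of all genes, and 1 was higher (Krt18) against 3.91%. Between iPSCs and MEFs, 2 were higher (Krt8 and Krt42) against 10.3% of all genes and 2 were lower (Krt19 and Krt7) against 15.5%. The comparisons share libraries, so they are not independent of each other. Without the filter on low values, none of the 9 pre-iPSC calls passed the threshold, and 2 of the 6 iPSC calls against pre-iPSCs did. Leaving out iPSC replicate 2 left 1 of these 6 calls and none of the 4 against MEFs, and leaving out iPSC replicate 1 left 2 and 1. Such a fit leaves 1 library in an arm, which is assumed to vary like the other groups, and it has less power, so a lost call there is no sign of a smaller difference.

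Among the keratins of simple epithelia, Krt19, a type I keratin without a tail domain, was at 18.6 and 15.3 FPKM in MEFs, 95.6 and 231 FPKM in pre-iPSCs and 2.81 and 2.99 FPKM in iPSCs. The 3 cell types did not overlap. Krt19 rose by 3.07 (SE 0.44, adjusted p = 0.0051) from MEFs to pre-iPSCs and fell by 5.26 (SE 0.44, adjusted p = 0.0016) from there to iPSCs, and it was lower in iPSCs than in MEFs (log2 change -2.20, adjusted p = 0.012).

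Krt8, the type II partner of Krt18, was at 0.348 and 0.672 FPKM in MEFs, 14.002 and 20.3 FPKM in pre-iPSCs and 2.11 and 8.86 FPKM in iPSCs. It rose by 3.57 (SE 0.45, adjusted p = 0.0032) from MEFs to pre-iPSCs and was higher in iPSCs than in MEFs (1.88, adjusted p = 0.022). The step from pre-iPSCs to iPSCs, a log2 change of -1.69, did not pass (adjusted p = 0.065). Krt18 itself was at 4.42 and 5.08 FPKM in MEFs, 1.06 and 0.837 FPKM in pre-iPSCs and 5.33 and 9.64 FPKM in iPSCs. It was thus lowest where Krt8 was highest. Krt18 fell by 1.56 (SE 0.39, adjusted p = 0.036) into pre-iPSCs and rose by 2.08 (SE 0.39, adjusted p = 0.021) into iPSCs. The first call was lost without MEF replicate 1 or either pre-iPSC library, and the second without any 1 of the 4 pre-iPSC and iPSC libraries. The ratio of Krt8 to Krt18 in FPKM took values of 0.0788 and 0.132 in the MEF libraries, 13.2 and 24.2 in the pre-iPSC libraries and 0.396 and 0.918 in the iPSC libraries. Both genes are known for processed pseudogenes, and reads shared with these may be missing from their levels, since the authors kept reads with 1 place in the genome.

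Krt7, the type II keratin of ducts and glands, was at 2.48 and 9.38 FPKM in MEFs, 0.488 and 0.676 FPKM in pre-iPSCs and 0.674 and 1.00 FPKM in iPSCs. It was lower than in MEFs both in pre-iPSCs (log2 change -1.93, SE 0.43, adjusted p = 0.023) and in iPSCs (-1.72, adjusted p = 0.026). The call in pre-iPSCs was lost without MEF replicate 2, pre-iPSC replicate 2 or iPSC replicate 2, while the log2 change stayed between -2.87 and -1.25 over all alternatives. That in iPSCs was lost without MEF replicate 2 or either iPSC library, while its log2 change stayed between -2.42 and -1.04. Krt20, a keratin of gut epithelium, was at 4.74 and 1.87 FPKM in MEFs, 2.82 and 4.65 FPKM in pre-iPSCs and 0.333 and 0.614 FPKM in iPSCs, and none of its comparisons passed (iPSC against pre-iPSC, log2 change -1.66, adjusted p = 0.070; iPSC against MEF, -1.47, adjusted p = 0.051). Krt20 was called lower in iPSCs under 6 of 10 alternatives in each of these comparisons, among them a pseudocount of 0.1, quantile normalization and the fit without the table term. With a pseudocount of 0.1 the log2 changes of Krt20 were -2.74 and -2.47.

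Of the keratins of stratified epithelia, Krt14, the type I keratin of the basal layer, was at 0.0638 and 0.0492 FPKM in MEFs, 13.48 and 6.28 FPKM in pre-iPSCs and 0.0493 and 0.112 FPKM in iPSCs. It rose by 3.28 (SE 0.38, adjusted p = 0.0025) and fell by 3.25 (adjusted p = 0.0035). Its type II partner Krt5 was listed at 0 in MEFs and iPSCs and was at 1.06 and 0.168 FPKM in pre-iPSCs, under the limit of the test. Krt13, a type I keratin of mucosa, was at 0.0835 FPKM in MEF replicate 1 and listed at 0 in MEF replicate 2 and in both iPSC libraries, and it was at 42.0 and 35.7 FPKM in pre-iPSCs, where 8.64% of all genes had a higher mean. It rose by 5.25 (SE 0.34, adjusted p = 5.7e-04) from MEFs and was lower in iPSCs, where it is listed at 0 (adjusted p = 6.3e-04). Both Krt14 and Krt13 passed the filter only through their pre-iPSC values and so had to differ, and their p-values are no separate support. Sizes of genes near 0 depend on the pseudocount. With 0.1 in place of 1, the log2 change from MEFs to pre-iPSCs was 8.16 for Krt13 and 5.90 for Krt14, that of Krt14 from pre-iPSCs to iPSCs was -5.71, and that of Krt8 between iPSCs and MEFs was 2.92. The type II partner of Krt13, Krt4, was listed at 0 in all 6 libraries.

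Krt17, a type I keratin of wounds and hair follicles, was listed at 0 in both MEF libraries, was at 97.1 and 15.3 FPKM in pre-iPSCs and at 1.21 and 0.622 FPKM in iPSCs. The pre-iPSC libraries differed more for Krt17 than for Krt13, and both lay above all the others. Krt17 rose from MEFs to pre-iPSCs (adjusted p = 0.0026) and fell by 4.40 (SE 0.62, adjusted p = 0.0071) into iPSCs. Its neighbour Krt16 was listed at 0 in MEFs and was at 2.20 and 2.01 FPKM in pre-iPSCs and at 0.0527 and 0 FPKM in iPSCs (adjusted p = 0.0081 and 0.014). Since Krt17 and Krt16 also passed the filter only through their pre-iPSC values, they had to differ, and these p-values are no separate support. Krt17 in iPSCs against MEFs did not pass (adjusted p = 0.32) but was called under 2 of 10 alternatives, a pseudocount of 0.1 and the fit without MEF replicate 2. Krt6a, the type II partner of Krt16 and Krt17, was at 0.402 and 1.205 FPKM in pre-iPSCs and listed at 0 in the other libraries. Krt13 and Krt17 belong to a gene cluster that the study chose on these same libraries, so their direction is not independent evidence. Krt14, Krt16 and Krt17 are close in sequence, as are Krt6a and Krt6b, so reads shared among them may likewise be missing and their levels are uncertain.

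Krt42, a type I gene beside Krt17, was listed at 0 in MEFs, was at 2.90 and 0.795 FPKM in pre-iPSCs and at 2.46 and 1.64 FPKM in iPSCs. It was higher than in MEFs in both (adjusted p = 0.040 and 0.019). The first of these calls was lost without any 1 of MEF replicate 1, pre-iPSC replicate 1 and the 2 iPSC libraries. The second was lost without MEF replicate 1 or either iPSC library. Over all alternatives the log2 changes of Krt42 ran from 0.942 to 4.03 and from 1.22 to 4.40. Among suprabasal keratins, Krt10 was at 1.08 and 1.06 FPKM in MEFs, 0.675 and 0.779 FPKM in pre-iPSCs and 0.533 and 0.346 FPKM in iPSCs and passed no test. Gm11940 overlaps Krt10, and whether the reads kept their strand is not given in the sources used here, so the 2 cannot be told apart. Krt80 was at 2.31 and 0.274 FPKM in MEFs and at or under 0.170 FPKM elsewhere.

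Other genes of the keratin network were counted from lists. Of 12 desmosome plaque and filament linker genes, 7 rose from MEFs to pre-iPSCs (Dsp, Jup, Perp, Pkp3, Ppl, Evpl and Eppk1), where 7.39% of all tested genes did, and 1 fell (Pkp2), where 9% did. Eppk1, Ppl, Evpl and Pkp3 would have missed the filter with their MEF levels in pre-iPSCs and so had to differ. Desmoplakin, Dsp, which ties keratin filaments to desmosomes, was at 0.408 and 0.262 FPKM in MEFs, 6.80 and 8.65 FPKM in pre-iPSCs and 2.19 and 3.24 FPKM in iPSCs (log2 change 2.70 from MEFs, adjusted p = 0.0039). From pre-iPSCs to iPSCs, none of the 12 rose and 4 fell, where 4.71% of all tested genes did, among them plakoglobin, Jup, from 84.5 and 92.9 to 11.8 and 14.3 FPKM (log2 change -2.68, adjusted p = 0.0045). Of 13 other intermediate filament genes, 12 were tested. Nefl was higher in pre-iPSCs than in MEFs, where 7.39% of all tested genes were. Vim, the fibroblast filament vimentin, was lower (log2 change -2.38, adjusted p = 0.035), where 9% were. From pre-iPSCs to iPSCs Ina, Nefh and Prph rose, where 3.91% of all tested genes did. Lmna fell (log2 change -3.21, adjusted p = 0.0038), where 4.71% did. Ina and Nefh passed the filter only through their iPSC values and so had to differ.

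Of 9 further markers of stratified epithelium, 6 were tested and 3 were higher in pre-iPSCs and lower again in iPSCs, where 7.39% and 4.71% of all tested genes were called in these directions. They were Sfn, the epithelial 14-3-3 protein, Perp, a desmosome protein that is also counted in the list above, and Lgals7, a galectin of stratified epithelia. Lgals7 was at 0.464 and 2.48 FPKM in MEFs, 152 and 215 FPKM in pre-iPSCs and 0 and 0.806 FPKM in iPSCs (log2 change 6.33, adjusted p = 3.9e-04, then -7.08, adjusted p = 4.8e-04). Trp63, the regulator that defines basal cells, was at or under 0.154 FPKM in every library. Of 6 genes of the general epithelial list, 5 rose from MEFs to pre-iPSCs (Cdh1, Epcam, Cldn3, Cldn4 and Esrp1), where 7.39% of all tested genes did, and 3 rose from pre-iPSCs to iPSCs (Cdh1, Cldn4 and Cldn7), where 3.91% did. From pre-iPSCs to iPSCs Cldn3 and Esrp1 had log2 changes of -0.70 and -0.76, which did not pass (adjusted p = 0.51 for each). E-cadherin, Cdh1, was at 0.111 and 0 FPKM in MEFs, 27.01 and 6.56 FPKM in pre-iPSCs and 71.9 and 54.2 FPKM in iPSCs. The 5 trophectoderm genes in the tables summed to 0.686 to 2.24 FPKM in a library and none of the 2 tested, Eomes and Gata3, was called in either step, whereas between iPSCs and MEFs Eomes was higher and Gata3 lower, where 10.3% and 15.5% of all tested genes were. Eomes entered the test only through values above its MEF level and Gata3 only through its MEF values.

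**Figure D2:**
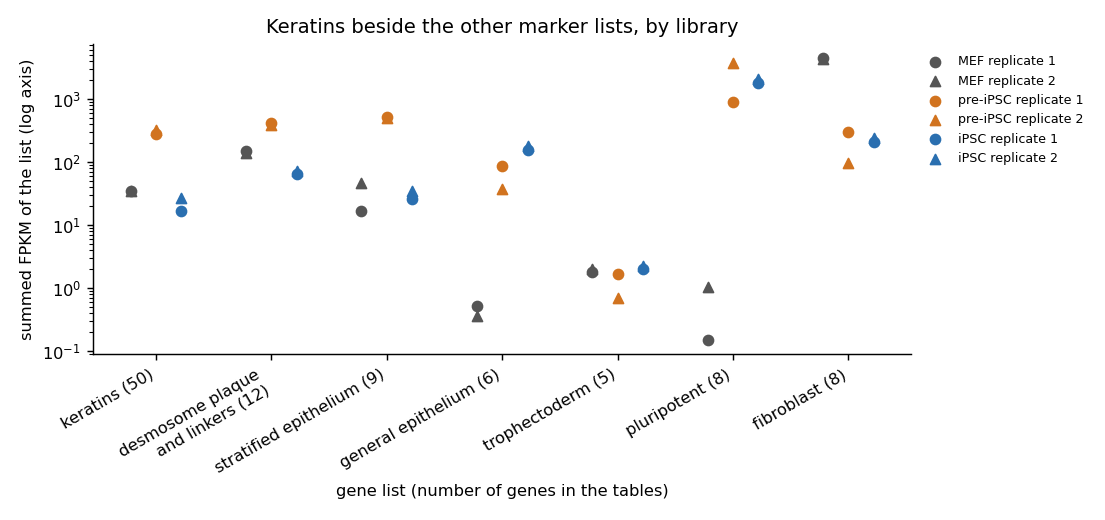
Summed FPKM, on a log axis, of the 50 keratin genes and of 6 other gene lists in each library (circles, replicate 1; triangles, replicate 2). Keratins, desmosome genes and stratified epithelium markers had their highest sums in the 2 pre-iPSC libraries, whereas general epithelium markers had theirs in the 2 iPSC libraries.

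Of 14 regulators of epithelial genes, 12 are in the tables and 7 were tested. 5 rose from MEFs to pre-iPSCs (Klf4, Elf3, Grhl1, Grhl3 and Ovol2), where 7.39% of all tested genes did, and Grhl1 passed the filter only through its pre-iPSC values. Klf4, a reprogramming factor and a regulator of keratinocyte differentiation, was at 25.1 and 37.6 FPKM in MEFs, 674 and 782 FPKM in pre-iPSCs and 99.6 and 105 FPKM in iPSCs (log2 change 4.52, adjusted p = 0.0011, then -2.82, adjusted p = 0.0063). Its retroviral copy may be counted with the endogenous gene, and its part was not tested. Elf3, an epithelial ETS factor, rose in both steps, to 4.11 and 5.12 FPKM in pre-iPSCs and 14.9 and 14.3 FPKM in iPSCs.

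Promoter marks were counted as reads of called nucleosomes centred within 1000 bp of a gene's start, and levels are reads per kilobase scaled to the unique reads of the library (RPKM). A promoter without reads could still hold up to 0.102 RPKM in the shallowest H3K4me3 library (3 reads), and such limits cover counting error only. Keratin promoters were low in H3K4me3. Their median was 0.305 and 0.318 RPKM in MEFs, 0.490 and 0.455 RPKM in pre-iPSCs and 0.605 and 0.526 RPKM in iPSCs, beside medians over all promoters of 1.22 and 0.955, 0.858 and 0.812, and 0.900 and 0.822 RPKM. Between 0 and 5 of the 50 lay above the median of all promoters in a library. The promoter of Krt85 is doubtful, since no coding GENCODE transcript starts there and its start in the tables lies 2796 bp from that of Krt6a.

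H3K4me3 was tested with edgeR at 17700 promoters, 47 of them of keratin genes. In pre-iPSCs against MEFs, 6 keratin promoters were higher (Krt17, Krt14, Krt36, Krt1, Krt82 and Krt13), where 3.05% of all promoters were, and 0 were lower, where 0.797% were. Among the 7794 promoters with a mean under 1 RPKM, to which 46 of the 47 belong, 5.27% were higher. 3 of the 6, Krt17, Krt14 and Krt13, are among the 7 genes with more mRNA, whereas Krt36 and Krt82 of the hair shaft and Krt1 of the suprabasal layer did not reach 1 FPKM. In iPSCs against MEFs, 21 keratin promoters were higher, where 9.74% of all promoters and 18.3% of low promoters were, and 0 were lower, where 4.01% were. Krt8 and Krt42 were among them and also had more mRNA. The other 19 were not called higher in mRNA, and most of them were under the limit of that test. Of these, Krt5, Krt7, Krt13, Krt14, Krt17 and Krt18 reached 1 FPKM in a library. Krt1, Krt4, Krt9, Krt15, Krt33a, Krt34, Krt35, Krt36, Krt73, Krt75, Krt76, Krt82 and Krt83 did not. In iPSCs against pre-iPSCs no promoter of any gene passed with edgeR or, for keratin genes, with DESeq2, although 5 keratin promoters and 1581 of all promoters had an unadjusted p under the threshold.

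Krt17 had 0.169 and 0.127 RPKM of H3K4me3 in MEFs, 0.766 and 0.617 RPKM in pre-iPSCs and 0.838 and 1.05 RPKM in iPSCs. It was higher than in MEFs both in pre-iPSCs (log2 change 2.57, adjusted p = 8.0e-04) and in iPSCs (2.98, adjusted p = 4.5e-05). With calls of at least 2 reads these changes were 7.53 and 7.96, sizes that have no MEF level behind them. The 5 and 4 MEF reads of Krt17 all lay in calls of 1 read, so that setting left Krt17 without MEF reads. Its promoter thus carried as much H3K4me3 in iPSCs, at 1.21 and 0.622 FPKM, as in pre-iPSCs, at 97.1 and 15.3 FPKM. Krt13 also stayed above its MEF level, with 0.643 and 0.350 RPKM in MEFs, 0.858 and 1.17 RPKM in pre-iPSCs and 0.776 and 0.954 RPKM in iPSCs, where its mRNA is listed at 0. The call of Krt13 in pre-iPSCs was lost in 6 of 13 alternatives and that in iPSCs in 5 of 13, among them DESeq2, scaling to unique reads alone and leaving out either MEF library. Krt14 had 0.203 and 0.255, 0.368 and 1.07, and 0.621 and 0.822 RPKM, and its call in pre-iPSCs (log2 change 2.00, adjusted p = 0.011) was lost without pre-iPSC replicate 2 or MEF replicate 1. Krt19 had the highest mean of the keratin promoters, with 1.86 and 0.796, 1.196 and 1.33, and 1.09 and 1.15 RPKM, and it was not called.

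Among the 4697 genes at 10 FPKM or more in both pre-iPSC libraries, the median H3K4me3 level was 1.16 RPKM in these cells, beside 0.268 RPKM for genes listed at 0. Krt19 stood at 1.26 RPKM (percentile 64.5 of these genes), Krt13 at 1.01 RPKM (30.2), Krt17 at 0.692 RPKM (6.54) and Krt8 at 0.599 RPKM (4.05). Krt17 and Krt8 thus lay below 0.776 RPKM, the level under which 10% of these genes lay. They also lay below 0.774 RPKM, the level under which 95% of the genes listed at 0 lay, and so within the range of silent genes.

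**Figure D3:**
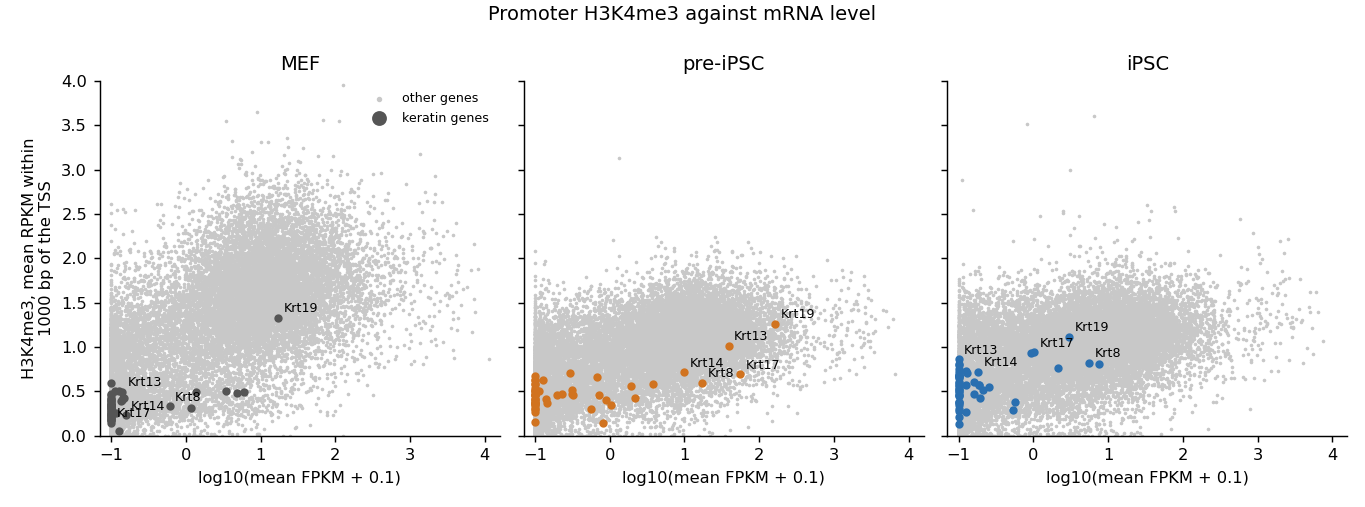
Mean H3K4me3 level within 1000 bp of the start (RPKM) against log10 of the mean FPKM plus 0.1, for keratin genes (coloured) and other genes (grey) in MEFs, pre-iPSCs and iPSCs; 3, 5 and 2 other genes above 4 RPKM lie off the axis. In pre-iPSCs Krt8 and Krt17, at 0.599 and 0.692 RPKM, lie below most of the genes at 10 FPKM or more in both libraries. In iPSCs Krt17 keeps its H3K4me3 at a far lower mRNA level.

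How many promoters were called depended on the scaling and on single libraries. When counts were scaled to unique reads alone, an alternative chosen after seeing the data, 4 keratin promoters (Krt1, Krt14, Krt17 and Krt36) were higher in pre-iPSCs and 10 in iPSCs, the median of all promoters moved by -0.39 and -0.37 (log2), and the split of all calls turned from 540 higher and 141 lower to 232 and 1121 in pre-iPSCs, and from 1724 and 709 to 841 and 2356 in iPSCs. The keratin counts in pre-iPSCs were 1, 3 and 2 without MEF replicate 1, MEF replicate 2 and pre-iPSC replicate 2, and in iPSCs 3, 8 and 11 without MEF replicate 1, iPSC replicate 1 and iPSC replicate 2. DESeq2 called 0 keratin promoters in pre-iPSCs and 1 in iPSCs, that of Krt17.

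Keratin promoters lay above most promoters in H3K27me3 in all 3 cell types, and they did so in histone H3 and H3K9me3 too, as given below. Their median was 0.530 and 0.569 RPKM in MEFs, 0.563 and 0.565 RPKM in pre-iPSCs and 0.662 and 0.656 RPKM in iPSCs, beside 0.182 to 0.259 RPKM over all promoters, and 46 to 50 of the 50 lay above the median of all promoters in every library. In the edgeR test, which all 50 entered, 2 gained H3K27me3 from MEFs to pre-iPSCs (Krt80 and Krt79), where 5.01% of 10407 tested promoters did, and 1 lost it (Krt8), where 3.09% did. Krt80 alone was higher in iPSCs than in MEFs, where 7.33% of promoters were, and 0 were lower, where 3.88% were. None was called between iPSCs and pre-iPSCs, where 0.663% of all were higher and 0.135% lower. The median log2 change of the 50 was 0.01, 0.05 and 0.07 in pre-iPSCs against MEFs, iPSCs against pre-iPSCs and iPSCs against MEFs, beside medians of -0.01, 0.00 and 0.00 over all promoters.

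Krt80, the keratin of cornifying cells that reached 1 FPKM in MEF replicate 1, had 0.121 and 0.185 RPKM of H3K27me3 in MEFs, 0.900 and 0.550 RPKM in pre-iPSCs and 0.807 and 0.746 RPKM in iPSCs. The MEF libraries lay below the other 4 (log2 change 2.21, adjusted p = 4.9e-04, in pre-iPSCs and 2.24, adjusted p = 2.6e-04, in iPSCs). Histone H3 at the Krt80 promoter was lowest in MEFs too, at 0.168 and 0.162 RPKM. It was at 2.11 and 0.403 RPKM in pre-iPSCs and 1.20 and 0.308 RPKM in iPSCs. Whether H3K27me3 changed relative to H3 was not tested. Krt8 had 0.576 and 0.662 RPKM in MEFs, 0.169 and 0.336 RPKM in pre-iPSCs and 0.663 and 0.567 RPKM in iPSCs. It was lowest in pre-iPSCs, where its mRNA was highest (log2 change -1.31 from MEFs, adjusted p = 0.033). Krt79, a keratin of the sebaceous gland and follicle, had 0.242 and 0.742 RPKM in MEFs and 1.12 and 1.07 RPKM in pre-iPSCs (1.11, adjusted p = 0.023). Without MEF replicate 1 only 1 of the 3 calls in pre-iPSCs held, and without pre-iPSC replicate 1 none did. Krt17 had 0.485 and 0.636, 0.450 and 0.458, and 0.634 and 0.507 RPKM, and Krt13 had 0.394 and 0.424, 0.422 and 0.275, and 0.778 and 0.746 RPKM.

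**Figure D4:**
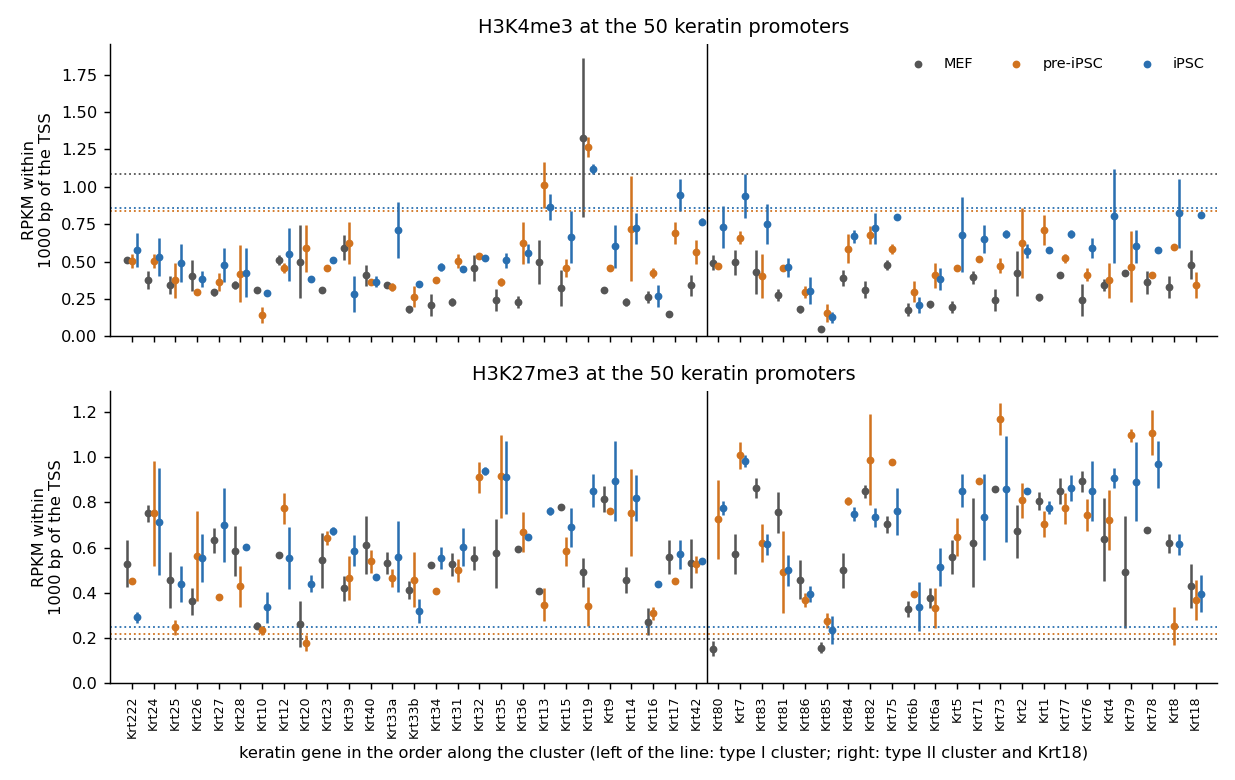
H3K4me3 (top) and H3K27me3 (bottom) within 1000 bp of the start of the 50 keratin genes, in RPKM, in their order along the type I cluster (left of the line) and the type II cluster with Krt18 (right). Points are means and bars span the 2 libraries of MEFs (grey), pre-iPSCs (orange) and iPSCs (blue), and dotted lines are the means of the 2 library medians over all promoters. Keratin promoters lie mostly below these lines for H3K4me3 and above them for H3K27me3 in each cell type.

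By a threshold of 1 RPKM for each mark, 0 or 1 keratin promoters in a MEF library, 6 or 7 in a pre-iPSC library and 5 or 6 in an iPSC library carried either mark. Krt19 carried H3K4me3 alone in 5 of the 6 libraries, the other being MEF replicate 2. No keratin promoter but Krt7 in iPSC replicate 1 carried both marks, as did 0.347% to 0.858% of all promoters in a library. Between 33.9% and 55.7% of all promoters carried H3K4me3 alone. H3K27me3 alone was found at 4 and 5 keratin promoters in pre-iPSCs, with Krt73, Krt78 and Krt79 in both libraries, and at 0.928% and 0.943% of all promoters there. In MEFs it was found at 0 keratin promoters and at 1.06% and 2.15% of all promoters. In iPSCs it was found at 2 and 3 keratin promoters and at 0.566% and 0.442% of all promoters. These counts depend on the threshold, since Krt73 was already at 0.848 and 0.874 RPKM in MEFs. Scaled to reads in calls, H3K27me3 alone was found at 6 and 8 keratin promoters in MEFs (3.15% and 4.67% of all promoters). By that scaling it was found at 13 and 11 in pre-iPSCs (2.65% and 2.74%) and at 10 and 10 in iPSCs (1.66% and 1.26%).

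Over the clusters as a whole, each of the 4 ChIP targets exceeded the genome's level. Histone H3 was at 1.20 to 1.41 times that level in the type I cluster. In the type II cluster H3 was at 2.61 times in pre-iPSC replicate 1 and 1.96 times in iPSC replicate 1. The other H3 libraries were at 1.27 to 1.44 times there. H3K9me3 was at 1.22 to 1.39 times in the type I cluster and 1.501 to 1.83 times in the type II cluster. H3K27me3 was at 0.443 to 0.486 RPKM in the type I cluster, 1.46 to 1.60 times the genome's level, and at 0.597 to 0.660 RPKM in the type II cluster, 1.96 to 2.17 times that level. The 2 MEF libraries were the lowest in the type II cluster, at 0.597 and 0.616 RPKM. H3K4me3 in the type II cluster was at 0.353 and 0.351 RPKM in MEFs, 0.482 and 0.436 RPKM in pre-iPSCs and 0.511 and 0.499 RPKM in iPSCs, so that the MEF libraries lay below the others. In the type I cluster it was at 0.328 and 0.315, 0.385 and 0.380, and 0.388 and 0.375 RPKM. Of 173 bins of 10 kb in the clusters, 14 had more H3K4me3 in pre-iPSCs than in MEFs, where 3.53% of all bins had. 0 had less, where 2.01% had. 11 of the 14 held a keratin gene, as did 41 of the 104 bins in the type I cluster and 51 of the 69 in the type II cluster. The 51 include bins within the long span given for Krt85 (chr15:101346119-101521940), whose start is doubtful. In iPSCs against MEFs 45 of the 173 bins had more H3K4me3 (7.95% of all bins) and 1 had less (5.26%), and between iPSCs and pre-iPSCs 0 were called (0.0276% of all bins higher, 0.00325% lower). For H3K27me3, 13 bins were higher and 2 lower in pre-iPSCs than in MEFs, where 9.68% and 3.3% of all bins were, and 13 were higher and 0 lower in iPSCs than in MEFs (8.8% and 3.12%). 1 bin was higher and 0 lower in iPSCs than in pre-iPSCs (0.0712% and 0.0407%).

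Histone H3 at keratin promoters showed no called difference with edgeR or DESeq2 in any comparison (0% of 19560 promoters), with an unadjusted p under the threshold at 1, 0 and 1 keratin promoters and at 373, 105 and 296 of all promoters. Replicate 1 of pre-iPSCs and of iPSCs stood apart, with keratin medians of 1.04 and 0.624 RPKM beside 0.325 to 0.387 RPKM in the other 4 libraries. The medians over all promoters moved likewise, with 0.550 and 0.408 RPKM in these 2 libraries and 0.204 to 0.238 RPKM in the others, and 37 to 48 of the 50 keratin promoters lay above the median of all promoters in a library. Without pre-iPSC replicate 2, 6 keratin promoters were called between pre-iPSCs and MEFs.

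H3K9me3 had 1 library per cell type, so its differences have no replicate check, and a promoter was counted at a 2-fold difference. Keratin promoters had medians of 0.410, 0.421 and 0.562 RPKM in MEFs, pre-iPSCs and iPSCs, beside 0.197, 0.218 and 0.265 RPKM over all promoters. Krt8 had 17 reads (0.557 RPKM) in MEFs, 1 read (0.0312 RPKM) in pre-iPSCs and 12 reads (0.397 RPKM) in iPSCs. It was lowest in the same cells as its H3K27me3. Of 46 keratin promoters compared between pre-iPSCs and MEFs, 2 were higher (Krt7 and Krt80; 14.6% of all promoters) and 1 lower (Krt8; 10.9%). In iPSCs, 6 of 48 were higher and 0 lower than in pre-iPSCs (15.9% and 6.55% of all), and 9 of 47 were higher and 0 lower than in MEFs (25% and 8.11%). Krt13 had 0.426, 0.592 and 0.926 RPKM and Krt14 had 0.525, 0.312 and 0.827 RPKM in MEFs, pre-iPSCs and iPSCs.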

How the data were processed

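Per the labels and the study's methods, reads were aligned to mm9 with Bowtie 1.0.1 (ChIP) or TopHat2 2.0.4 (RNA, uniquely mapped reads), and the authors deposited FPKM values made with Cufflinks 2.0.2 in 2 tables, 1 per replicate set, which they normalized separately. They also deposited nucleosome calls with the count of reads in each and a positional spread (fuzziness, a signal value in bp), which was not used for a result. The keratin genes and all lists were chosen with earlier results of these data known. Keratin genes were named where they reached 1 FPKM or were called in any test. Krt85, Krt6b and Krt78 are named besides, for annotation, likeness in sequence and mark state. The mRNA test was limma-trend (limma 3.58.1) on log2(FPKM + 1) for genes whose mean reached 0.5 FPKM, with the table as a term, so that contrasts stand within tables. The test of read counts was the quasi-likelihood F-test of edgeR 4.0.16, after filterByExpr and TMM, over all promoters or 10-kb bins. Calls needed a Benjamini-Hochberg adjusted p under 0.05 over all features tested and, for mRNA, a log2 change of at least 1. RPKM used the unique reads that the study lists. Alternatives included DESeq2 1.42.0, other windows, filters and scalings, and each library left out. Scripts were tested on simulated data. The study's methods call the replicates biological, but the labels name no separate cultures, and p-values measure the spread between these libraries. 1 list gene is not reported here. R 4.3.3 and Python 3.11.15 were used.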

Additional observations from a re-analysis of the deposited data

How the results depend on the processing

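No keratin value that passed a test reversed its direction: of 719 settings of single genes, 517 kept their call or lack of one, 186 lost the call and 16 gained it. The counts of called keratin genes moved more. In the order pre-iPSC against MEF, iPSC against pre-iPSC and iPSC against MEF, mRNA calls were 9, 6 and 4, and 0, 2 and 0 without the filter on low values. The cause was not tested here or for the counts below. Leaving out single libraries gave 6 to 9, 1 to 8 and 0 to 6. H3K4me3 promoters were 6, 0 and 21 and ranged over 1 to 6, 0 to 0 and 3 to 19 without single libraries. In pre-iPSCs against MEFs they were 0 with DESeq2, 2 within 500 bp and 15 within 2000 bp, and in iPSCs against MEFs 1 with DESeq2, 6 within 500 bp, 12 from calls of at least 2 reads and 10 when scaled to unique reads without TMM, a setting chosen after seeing the data. H3K27me3 promoters were 3, 0 and 1, and 0 to 3, 0 to 0 and 1 to 2 without single libraries. DESeq2 gave 0 and windows of 500 bp gave 1 for pre-iPSCs against MEFs, windows of 2000 bp gave 1 for iPSCs against pre-iPSCs, and iPSCs against MEFs gave 0 with DESeq2 and 2 with either window. H3 promoters were 0 in each, and 0 to 6, 0 to 0 and 0 to 0 without single libraries, the 6 being without pre-iPSC replicate 2.

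Bins with H3K4me3 called were 14, 0 and 46, and 3 to 14, 0 to 1 and 9 to 44 without single libraries (3 without pre-iPSC replicate 2, 9 without iPSC replicate 1). DESeq2 gave 6 in pre-iPSCs against MEFs and 18 in iPSCs against MEFs, where 50-kb bins gave 21. Bins with H3K27me3 called were 15, 1 and 13, and 2 to 18, 0 to 1 and 4 to 21 without single libraries (2 without pre-iPSC replicate 1, 21 without MEF replicate 2). DESeq2 gave 3 and 2 and 50-kb bins gave 2 and 4 in the comparisons with MEFs, and 50-kb bins gave 0 between iPSCs and pre-iPSCs. Promoters with either mark above 1 RPKM numbered 1, 0, 6, 7, 6 and 5 in the 6 libraries, MEFs first and iPSCs last. They were 0 in every library at 2 RPKM, 3 and 1 in MEFs and 8 in iPSC replicate 2 within 500 bp, and 7, 8, 16, 15, 19 and 17 when scaled to reads in calls. H3K9me3 promoters at 2-fold were 3, 6 and 9, and 18, 15 and 23 at 1.5-fold, with 5 in pre-iPSCs against MEFs within 500 bp.

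Replicate numbers were not shown to pair the samples. The difference between replicate 1 and replicate 2 was taken within each cell type, in log2 levels of genes or promoters. Between cell types these differences correlated at -0.205 to 0.346 for RNA, -0.0152 to 0.127 for H3K4me3 and -0.0442 to 0.0479 for H3K27me3. With the replicate number as a block, calls were 6, 0 and 21 for H3K4me3 promoters, 3, 0 and 1 for H3K27me3 promoters, 0 in each comparison for H3 promoters, 14, 0 and 46 for H3K4me3 bins and 13, 1 and 12 for H3K27me3 bins. For mRNA, where the table is that block, the fit without the block gave 9, 7 and 5. For H3 the replicate differences of pre-iPSCs and iPSCs correlated at 0.803, both replicate 1 libraries standing apart. At 3 reads per promoter as the limit of detection, differences among the lowest keratin promoters were not detectable at this depth.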
